A study of Homo sapiens with 4 samples.

Results

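Among 10 genes of the circadian clock, the transcript of NR1D1 (REV-ERB alpha) was recovered at a higher level with d27 KIF5A than with WT KIF5A, and the other 9 did not pass the test. The 10 genes were PER1, PER2, PER3, CRY1, CRY2, CLOCK, NR1D1, NR1D2, DBP and BHLHE40. They were matched by symbol to the count tables, which list 60719 genes, and all 10 were found. The molecular clock is a feedback loop of transcription. CLOCK pairs with BMAL1 to switch on the PER and CRY genes through E-box sequences, and the PER and CRY proteins then repress that pair. In a second loop REV-ERB alpha and beta (NR1D1 and NR1D2) repress BMAL1, while DBP carries the rhythm to output genes and BHLHE40 competes for E-boxes. Such loops run in most cell types, cultured lines included, and PER1 and several partners also respond to serum and other stimuli.

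The libraries hold RNA that came down with KIF5A, the heavy chain of a kinesin-1 motor that moves cargo along microtubules in neurons. SKNAS cells, an established human neuroblastoma line, received either V5-d27 KIF5A (2 libraries) or V5-WT KIF5A (2 libraries) by lipid transfection after a change to fresh medium, and the tagged protein was captured on anti-V5 beads a day later. The series title places the mutants it studies among those associated with amyotrophic lateral sclerosis. The construct was introduced transiently into 1 line that keeps its own KIF5A gene, all libraries share that treatment, and the labels do not say whether the 2 libraries of a group came from separate cultures, so the spread behind each p-value is that between these libraries and could be technical. No input or mock precipitate was analysed here, so a higher recovery and a higher level of the RNA in the cells cannot be told apart, and the clock phase of the cells was not measured.

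Counts summed over genes were 18335151 and 10483082 in the d27 libraries and 8142869 and 10811134 in the WT libraries. KIF5A itself took 10.8% and 11.2% of gene counts in d27 and 9.03% and 14.8% in WT, which adds the construct's transcripts to those of the cells. The d27 libraries correlated most closely with each other across tested genes (Pearson r = 0.963 on log2 CPM, the usual depth-scaled count). The WT libraries did not group as cleanly: WT replicate 1 correlated with d27 replicate 2 (r = 0.93) as closely as with WT replicate 2 (r = 0.928). WT replicate 2 correlated least with the d27 libraries (r = 0.866 with replicate 1 and 0.887 with replicate 2). Markers of neuroblastoma were listed for the adrenergic (8 genes) and mesenchymal (7 genes) states. Of the adrenergic list, HAND2 and GATA3 had at least 605 counts in each library. PHOX2A had between 89 and 276 counts per library, ISL1 between 59 and 108, DBH between 3 and 13 and TH between 0 and 5. Of the mesenchymal list, VIM, FN1, CD44, YAP1 and PRRX1 had at least 605 counts in each library, whereas NOTCH2 had between 17 and 29. In a list of 7 markers of other cells, CD3E, EPCAM and KRT5 were at 0 in all 4 libraries. That list summed to 101 and 80.2 CPM in d27 and 192 and 164 CPM in WT. Nearly all of this was PTPRC, a leukocyte phosphatase, with 101 and 79.8 CPM in d27 and 190 and 162 CPM in WT. PTPRC was lower in d27 by the test used below (log2 fold change -0.96 ± 0.24 SE, edgeR adjusted p = 0.0433). That call held under 8 of 13 alternatives. It was lost with library totals only (edgeR adjusted p = 0.0769) and whichever library was left out. With a library left out, log2 fold changes ran between -1.13 (without d27 replicate 1) and -0.77 (without d27 replicate 2). The part of these markers in the results below was not tested.

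All 10 clock transcripts passed the filter on low counts, with between 48 counts (DBP in WT replicate 2) and 5865 counts (NR1D1 in d27 replicate 1). One of them was higher in d27 by edgeR's quasi-likelihood test at an adjusted p under 0.05 and none was lower. Of all 14909 genes tested, 8.00% were higher and 3.70% lower, so the share of clock genes called was near that of the whole table. The 1 call became 2 without WT replicate 2, when BHLHE40 also passed, and the 1743 calls over all genes became 768 without d27 replicate 1 and 4851 without WT replicate 1. At an unadjusted p under 0.05, 3 clock genes passed (NR1D1, BHLHE40 and PER1), all of them higher in d27, and 30.7% of all tested genes passed in either direction, so this share was no higher than that of the whole table. Both d27 libraries lay above both WT libraries for 4 clock genes (31.4% of all tested genes did so) and below them for 1 (29.8% did so). The median log2 fold change of the 10 genes was 0.28, against -0.0004 over all genes tested. These genes and the lists below were chosen with earlier results of these data known, so their shares and medians are a description only. Summed, the 10 transcripts reached 706 and 582 CPM in d27 and 336 and 338 CPM in WT. Without NR1D1 the other 9 summed to 386 and 312 CPM in d27 and 288 and 311 CPM in WT. The lower d27 sum (311.6 CPM) and the higher WT sum (311.0 CPM) were nearly equal, so these sums did not set the groups clearly apart.

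**Figure D1:**
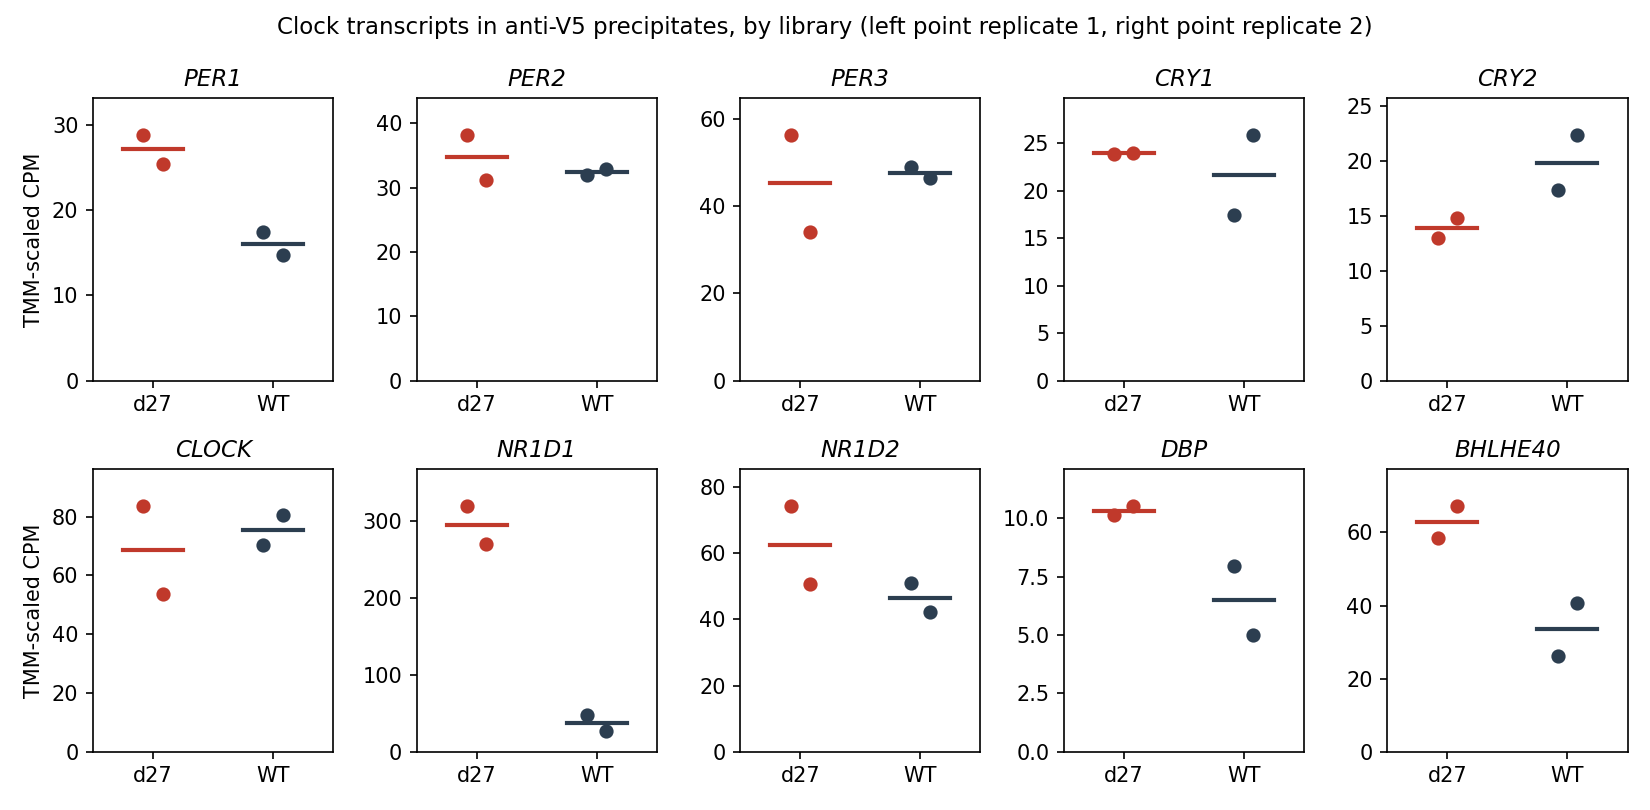
Level of each clock transcript in every library, as CPM scaled by TMM on a linear axis from 0, with d27 on the left and WT on the right; points are libraries and bars are group means. NR1D1 lies at 319 and 270 CPM in d27 against 47.7 and 26.9 CPM in WT, while the libraries of PER2, PER3, CRY1, CLOCK and NR1D2 overlap between groups.

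CLOCK (GRCh38 chromosome 4, 55427903 to 55547138, minus strand) encodes the activator subunit of the loop. It was measured at 83.5 and 53.8 CPM in d27 and 70.2 and 80.7 CPM in WT. The d27 libraries lay on either side of both WT libraries. By edgeR, with 2 libraries in each group, CLOCK had a log2 fold change of -0.13 ± 0.28 (SE), a 95% interval of -0.78 to 0.52 and an adjusted p of 0.787.

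The period genes encode the PAS-domain proteins of the repressor complex. PER1 (chromosome 17, 8140472 to 8156506, minus strand) had 28.8 and 25.5 CPM in d27 and 17.4 and 14.8 CPM in WT. The groups did not overlap, but the difference did not pass the adjusted test (log2 fold change 0.76 ± 0.28 SE, 95% interval 0.10 to 1.41, edgeR adjusted p = 0.119). PER2 (chromosome 2, 238244038 to 238290102, minus strand) had 38.2 and 31.2 CPM in d27 and 32 and 33 CPM in WT, so that the WT values fell between the d27 values. The fitted log2 fold change of PER2 was 0.10 ± 0.26, with an interval of -0.51 to 0.71 (edgeR adjusted p = 0.836). PER3 (chromosome 1, 7784320 to 7845177, plus strand) had 56.3 and 34 CPM in d27 and 48.9 and 46.4 CPM in WT, again with the d27 libraries on both sides. UTS2, which shares 868 exonic bases with PER3 on the opposite strand, had at most 1 count per library. For PER3 it was -0.07 ± 0.30, with an interval of -0.78 to 0.63 (edgeR adjusted p = 0.893). The ratio of PER1 to PER2 counts within a library, which needs no scaling, was 0.755 and 0.815 in d27 and 0.544 and 0.448 in WT. An exact two-sided permutation test of 2 against 2 libraries gave p = 0.333, the smallest it can give, and the pairs of genes set against each other here and below were chosen after the values were seen.

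The cryptochromes bind the PER proteins and repress CLOCK and BMAL1 directly. CRY1 (chromosome 12, 106991364 to 107093829, minus strand) had 23.9 and 24 CPM in d27 and 17.4 and 25.9 CPM in WT, with overlapping groups (log2 fold change 0.14 ± 0.31 SE, edgeR adjusted p = 0.788). CRY2 (chromosome 11, 45847118 to 45883248, plus strand) was the 1 clock transcript below WT in both d27 libraries, at 13 and 14.8 CPM in d27 and 17.3 and 22.4 CPM in WT. That difference did not pass (log2 fold change -0.52 ± 0.31, 95% interval -1.23 to 0.19, edgeR adjusted p = 0.290).

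NR1D1 and NR1D2 encode paired heme-binding nuclear receptors that repress transcription, BMAL1 being their best known clock target. NR1D1 (chromosome 17, 40092787 to 40100725, minus strand) had 5865 and 2904 counts in d27 and 419 and 259 in WT. Scaled, it averaged 295 ± 34.8 CPM in d27 and 37.3 ± 14.7 CPM in WT (SD, n = 2 each). That is 7.90 times the WT level, or a log2 fold change of 2.98 ± 0.33 SE with a 95% interval of 2.22 to 3.75 (edgeR adjusted p = 0.00684). By p it ranked 41 among all 14909 genes tested, and 99.2% of them had a lower log2 fold change. The call held under all 13 alternatives, with log2 fold changes between 2.65 (without WT replicate 2) and 3.50 (without WT replicate 1). NR1D2 (chromosome 3, 23945260 to 23980618, plus strand) had 74.2 and 50.6 CPM in d27 and 50.9 and 42.2 CPM in WT. The lower d27 library lay between the WT libraries, and the difference did not pass (log2 fold change 0.42 ± 0.28 SE, 95% interval -0.23 to 1.08, edgeR adjusted p = 0.346). The intervals of the paralogs' log2 fold changes did not overlap. Within a library NR1D1 had 4.3 and 5.34 times the counts of NR1D2 in d27, and 0.937 and 0.638 times in WT (exact permutation p = 0.333, the smallest possible).

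The 3' end of NR1D1 lies opposite THRA, the gene of thyroid hormone receptor alpha, on the other strand: 263 of the 2772 exonic bases of NR1D1 (9.49%) are also exonic in THRA. The strand setting of the counting is not given in the sources used here, so reads in that stretch may not have been told apart or may have been set aside as ambiguous. THRA was itself higher in d27, at 283 and 204 CPM in d27 and 93.5 and 111 CPM in WT (log2 fold change 1.25 ± 0.26 SE, edgeR adjusted p = 0.0275). The THRA call was lost without d27 replicate 1 (1.01, edgeR adjusted p = 0.0886). NR1D1 had 1.13 and 1.32 times the counts of THRA in d27 and 0.51 and 0.242 times in WT. Each d27 ratio was thus above both WT ratios, and the shared stretch's part in the NR1D1 counts was not tested.

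**Figure D2:**
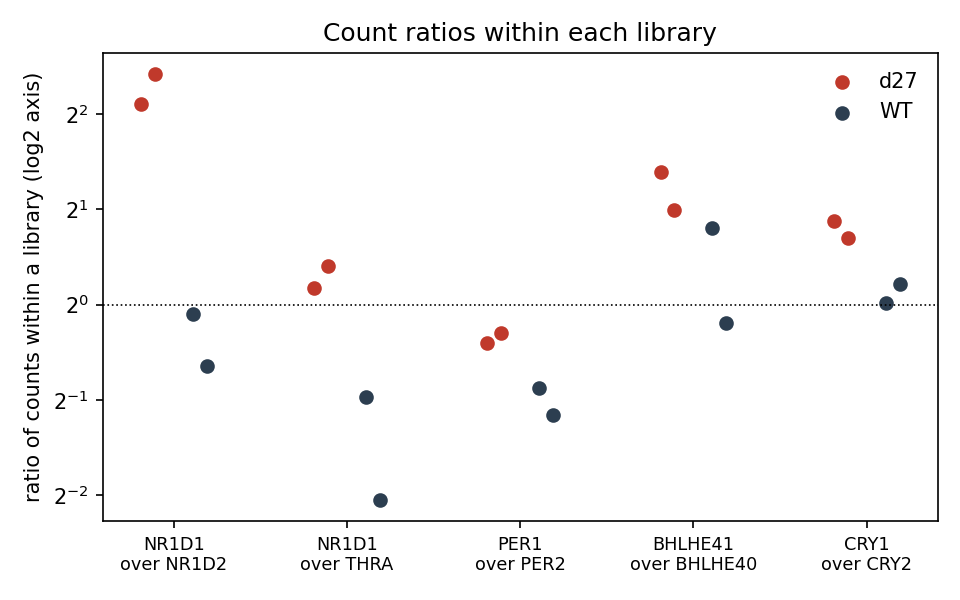
Ratio of the counts of paired genes within each library on a log2 axis, with d27 points left of WT points for each pair. The NR1D1 to NR1D2 ratio is 4.3 and 5.34 in d27 and 0.937 and 0.638 in WT, and NR1D1 also stands higher against THRA in both d27 libraries.

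The promoters of the paralogs are shown because NR1D1 was the 1 member called, NR1D2 is its paralog and NR1D1 is a known E-box target of CLOCK and BMAL1. Each window holds 250 bases before and 50 after a RefSeq transcription start (GRCh38.p14), and capitals mark the E-box CACGTG and the cAMP response element half-site TGACG, searched on both strands; these motifs do not overlap in the windows shown. NR1D2 has 2 annotated starts, and the window of the downstream one is printed.
NR1D1, chr17:40100540-40100839, minus strand: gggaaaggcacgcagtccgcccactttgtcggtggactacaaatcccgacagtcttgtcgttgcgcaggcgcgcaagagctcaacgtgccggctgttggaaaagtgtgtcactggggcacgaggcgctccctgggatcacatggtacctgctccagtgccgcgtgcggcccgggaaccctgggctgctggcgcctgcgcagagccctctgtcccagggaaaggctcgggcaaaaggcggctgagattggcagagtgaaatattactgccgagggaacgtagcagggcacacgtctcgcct
NR1D2, chr3:23945871-23946170, plus strand: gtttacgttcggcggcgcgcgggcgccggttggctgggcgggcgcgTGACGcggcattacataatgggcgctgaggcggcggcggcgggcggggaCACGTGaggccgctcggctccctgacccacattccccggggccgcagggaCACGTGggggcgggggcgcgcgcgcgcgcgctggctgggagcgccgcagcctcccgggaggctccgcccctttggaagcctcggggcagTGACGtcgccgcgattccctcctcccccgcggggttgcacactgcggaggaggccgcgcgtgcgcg
The NR1D1 window held neither motif. Sequence outside the windows and E-boxes with other letters were not searched, so this does not show that NR1D1 lacks E-boxes. The NR1D2 window held 2 E-boxes and 2 half-sites, and the window of its upstream start held no E-box and 1 half-site. Among the other clock genes, the PER1 and BHLHE40 windows held 1 E-box each, and those of PER2, PER3, CRY1, CRY2, CLOCK and DBP held none. Of 35116 RefSeq windows of this length, 7.26% held CACGTG and 24.6% held TGACG. The full cAMP response element TGACGTCA, in which 2 overlapping half-sites face each other, was in 1.85% of windows and in no window of the 10 clock genes.

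DBP (chromosome 19, 48630030 to 48637438, minus strand), a PAR bZIP transcription factor whose RNA is among the most rhythmic in tissues, had the fewest counts of the 10. It was measured at 10.1 and 10.5 CPM in d27 and 7.97 and 4.99 CPM in WT. The groups did not overlap, but the difference did not pass (log2 fold change 0.67 ± 0.41 SE, 95% interval -0.27 to 1.61, edgeR adjusted p = 0.300). DBP shares 661 of its 6544 exonic bases with SPHK2, a sphingosine kinase gene on the opposite strand, which had 27.5 and 31.1 CPM in d27 and 13.5 and 16.6 CPM in WT (log2 fold change 0.95 ± 0.29, edgeR adjusted p = 0.0690). The part of this neighbour in the DBP counts was not tested.

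BHLHE40 (chromosome 3, 4979116 to 4985323, plus strand) encodes DEC1, a basic helix-loop-helix repressor that is also induced by hypoxia and serum. It had 58.4 and 67.2 CPM in d27 and 26.3 and 40.9 CPM in WT, and averaged 62.8 ± 6.24 CPM in d27 and 33.6 ± 10.3 CPM in WT (SD, n = 2 each). Both d27 libraries were above both WT libraries. Its log2 fold change of 0.90 ± 0.29 (SE; 95% interval 0.22 to 1.58) had an edgeR adjusted p of 0.0848. It passed without WT replicate 2 (log2 1.28, edgeR adjusted p = 0.0310), with DESeq2 (0.91, adjusted p = 0.0437) and with no low-count filter (0.97, edgeR adjusted p = 0.0246), so its place on either side of the threshold depended on those choices.

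**Figure D3:**
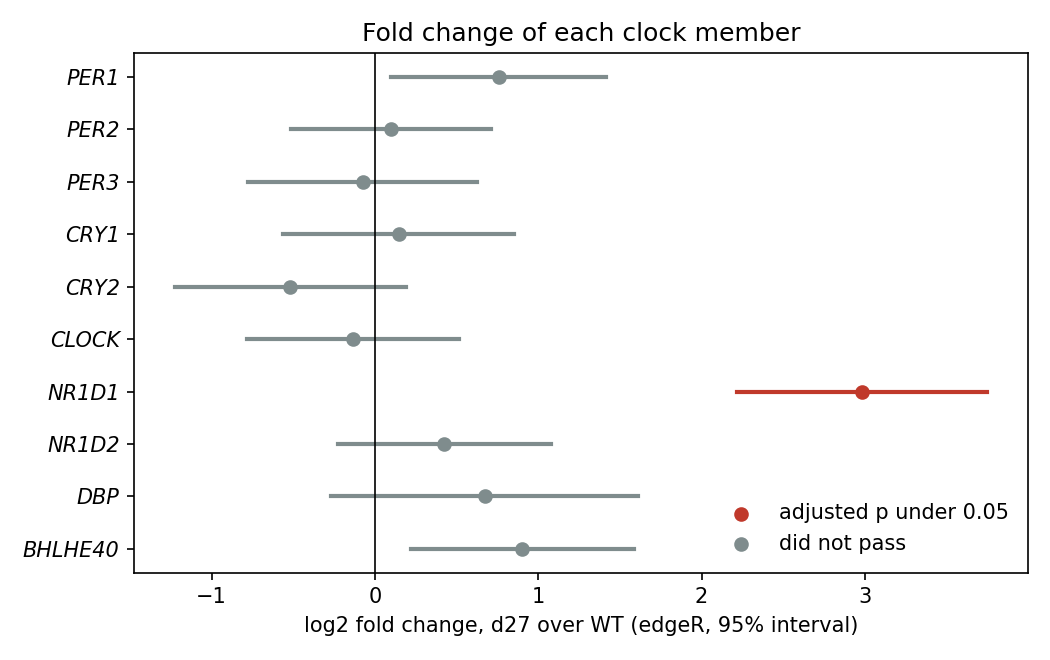
Log2 fold change of each clock gene, d27 over WT, with its 95% interval from the edgeR fit; red marks an adjusted p under 0.05. NR1D1 at 2.98 is the one red point, and the intervals of PER1 and BHLHE40 exclude 0 without passing the adjustment.

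Per kilobase of merged exons, the order of levels was similar at the top of both groups and NR1D1 stood apart in d27. Merged exons take in every annotated isoform (6544 bases for DBP, 2772 for NR1D1), so the order between genes depends on that length. Other lengths were not tried. In d27 it averaged 106 CPM per kilobase, followed by BHLHE40 (16.4), NR1D2 (10.7) and CLOCK (5.84), and the library values of these neighbours did not overlap. CLOCK, PER3 (5.57), PER2 (5.05) and CRY1 (4.73) then followed with overlapping libraries, and PER1 (3.88), CRY2 (2.24) and DBP (1.58) were separate from their neighbours. In WT the order again began with NR1D1 (13.5 CPM per kilobase), BHLHE40 (8.75) and NR1D2 (8.00), but here the library values of NR1D1 and BHLHE40, and of BHLHE40 and NR1D2, overlapped. CLOCK (6.41) and PER3 (5.88) came next with overlapping libraries, then PER2 (4.72), CRY1 (4.28) and CRY2 (3.20), with CRY1 overlapping both of the others. PER1 (2.30) and DBP (0.99) were lowest and separate from their neighbours. CRY2 and PER1 were the 1 pair of neighbours that changed places, with PER1 above CRY2 in d27 and CRY2 above PER1 in WT. NR1D1 made up 45.2% and 46.4% of the summed CPM of the 10 genes in d27 and 14.2% and 7.97% in WT.

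The genes whose pattern over the 4 libraries lay nearest to that of PER1, by Euclidean distance between centred log2 CPM among 14873 other genes with a symbol, were NAP1L4, GPX7 and UGDH. Their distances were 0.019, 0.027 and 0.035. They encode a histone chaperone, a peroxidase of the endoplasmic reticulum and a UDP-glucose dehydrogenase. Their log2 fold changes of 0.74, 0.78 and 0.75 did not pass the test (edgeR adjusted p = 0.0793, 0.317 and 0.0867), and over 4 libraries such nearness is a description only.

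Of 30 other genes of the clock pathway, 28 were tested, and 2 of them rose, none fell and 26 did not pass. Over all genes tested 8.00% rose, so this share too was near that of the whole table. With library totals only, 1 of the 28 was called, and 1174 of all 14909 genes were. With the replicate block 10 of the 28 were called, and 3575 of all 14909 genes were. BHLHE41 (DEC2), the paralog of BHLHE40 and a repressor of the same E-box targets, averaged 144 ± 14.1 CPM in d27 and 40.8 ± 7.15 CPM in WT (SD, n = 2 each). Its libraries stood at 154 and 134 CPM in d27 and 45.9 and 35.8 CPM in WT, which is 3.52 times the WT level (log2 fold change 1.82 ± 0.25 SE, edgeR adjusted p = 0.00991). That call held under all 13 alternatives. Exons of BHLHE41 overlap those of SSPN on the opposite strand, and the part of this neighbour in the BHLHE41 counts was not tested. HLF, a PAR bZIP factor related to DBP, had 142 and 40 counts in d27 and 10 and 5 in WT (log2 fold change 2.79 ± 0.73, edgeR adjusted p = 0.0464). HLF met the low-count filter through its d27 libraries, since WT replicate 2 was below the minimum count of 10. With at least 50 counts required in each library of 1 group, HLF was not tested. The HLF call was lost without d27 replicate 1 (2.17, edgeR adjusted p = 0.512), without WT replicate 2 (2.36, edgeR adjusted p = 0.0527) and with library totals only (2.80, edgeR adjusted p = 0.0577). The third PAR bZIP gene, TEF, named after its value was seen, had 31.4 and 38.7 CPM in d27 and 15.8 and 21 CPM in WT and did not pass (0.93 ± 0.29, edgeR adjusted p = 0.0794).

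BMAL1, the usual partner of CLOCK, had 22.1 and 20.5 CPM in d27 and 18.3 and 17.1 CPM in WT (log2 fold change 0.27 ± 0.28 SE, 95% interval -0.38 to 0.92, edgeR adjusted p = 0.559). NPAS2, a paralog that can stand in for CLOCK, had 254 and 225 CPM in d27 and 196 and 223 CPM in WT (0.20 ± 0.23, interval -0.35 to 0.74, edgeR adjusted p = 0.616). Neither difference passed, although the d27 libraries lay above the WT libraries for both genes. CIART had too few counts to be tested. USP2 had 1 count over both WT libraries and is left out of the following range. The log2 fold changes of the other 27 tested genes, which include casein kinases that phosphorylate PER proteins and ubiquitin ligase subunits that mark PER and CRY proteins for decay, ran between -1.37 and 2.79 with a median of 0.39. The values were above 0 for 19 of the 27 and below 0 for 8. Over all genes tested 7453 were above 0 and 7456 below, with a median of -0.0004. Whether the lists differ in this was not tested. The lowest was that of DDB1, an adaptor of CUL4 ubiquitin ligases, at 169 and 279 CPM in d27 and 359 and 796 CPM in WT (log2 fold change -1.37 ± 0.42 SE, edgeR adjusted p = 0.0726). DDB1, named after its value was seen, was called lower under 7 of 13 alternatives.

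**Figure D4:**
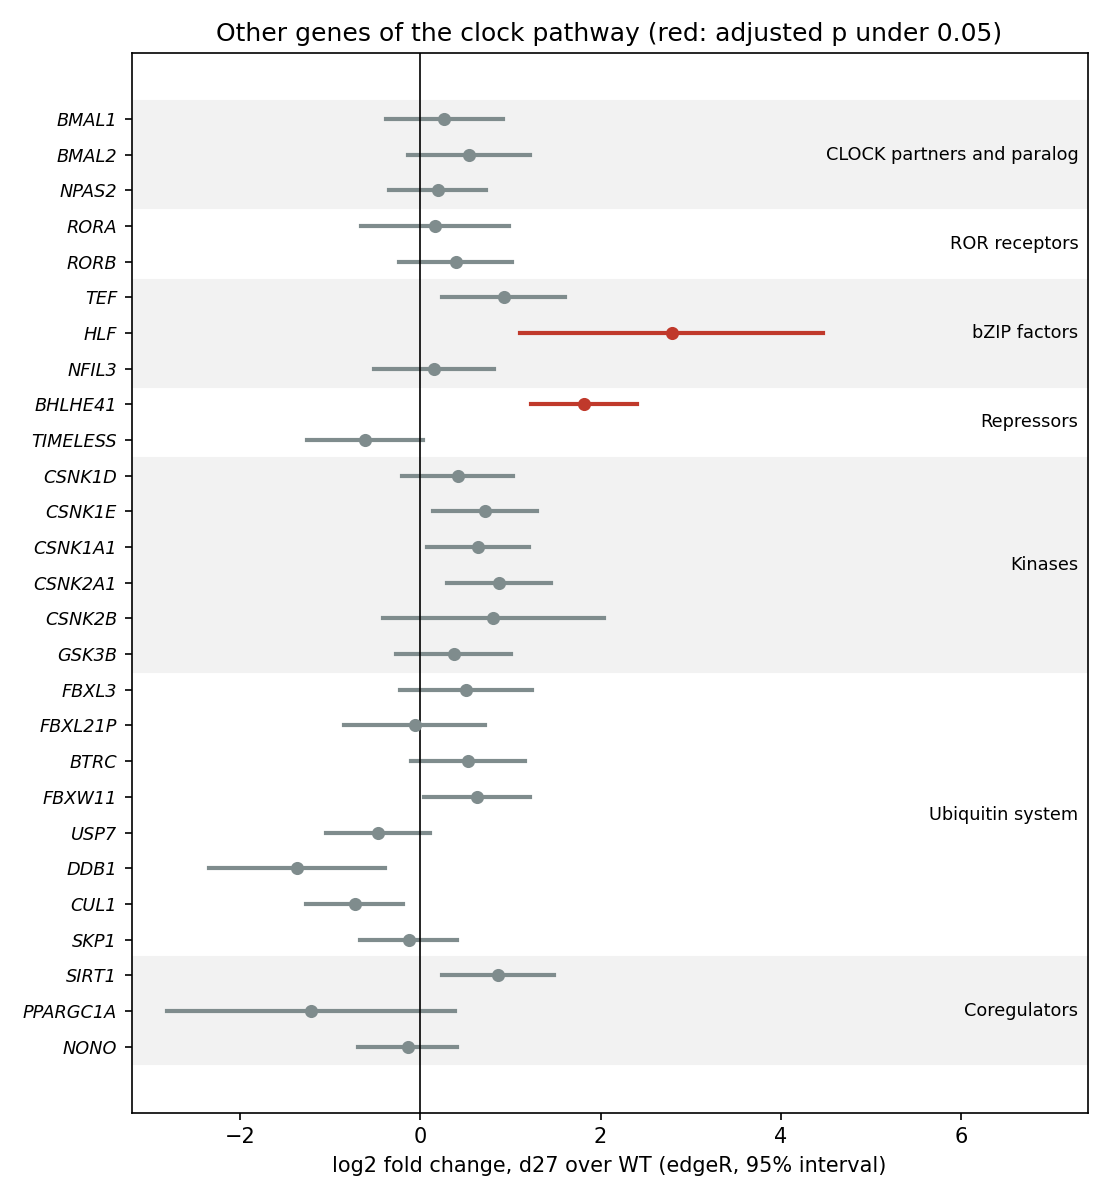
Log2 fold change, d27 over WT, with 95% interval from the edgeR fit for 27 other tested clock pathway genes, grouped by role; USP2, with 1 count in WT, is not drawn. HLF at 2.79 and BHLHE41 at 1.82 are the 2 red points, past an adjusted p under 0.05. HLF met the low-count filter through its d27 libraries.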

How the data were processed

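RNA from 2 anti-V5 precipitates of d27 and 2 of WT was sequenced after ribosomal depletion with a strand-marking kit, per the labels' protocols. The authors deposited unnormalized counts per gene, made with HTSeq against GRCh38; the submitters' processing notes also name DESeq2. The aligner, annotation release, strand setting and versions are not given in those sources. HTSeq's summary entries (25.9% and 36.8% of all entries in d27, 47.6% and 47.3% in WT) stayed out of library sizes and tests. GENCODE release 29 gave positions, lengths and GC content.

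The test was edgeR 4.0.16 in R 4.3.3: TMM, filterByExpr (minimum count 10, minimum total 15), robust glmQLFit and glmQLFTest on group, Benjamini-Hochberg adjustment over all genes tested, threshold 0.05. CPM are scaled by TMM; SE is the log2 fold change over the root of F. The functions were tested on simulated counts. A count of 0 allows 3 counts (0.164 and 0.286 CPM in d27, 0.368 and 0.277 CPM in WT), counting error only.

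The rule named all 10 members, called pathway genes, BMAL1, NPAS2, KIF5A and PER1's 3 nearest genes. Some genes of the lists are not reported here. Members and lists were chosen with earlier results of these data known. Alternatives were DESeq2 1.42.0, its size factors, library totals, 2 other filters, KIF5A left out, each library left out (a lone library is assumed to vary like the other group), a replicate block and, chosen after seeing the data, offsets for GC content with and without exon length.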

Additional observations from a re-analysis of the deposited data

How the results depend on the processing

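DBP, the member with the fewest counts, had the widest 95% interval of log2 fold change (-0.27 to 1.61). The NR1D1 and BHLHE41 calls held under all 13 alternatives. Genes called numbered 1743 as reported, 2789 with DESeq2, 2862 with no filter, 2649 with the GC offset alone, 3575 with the replicate block and 768 (without d27 replicate 1) to 4851 (without WT replicate 1) with a library left out. The share of higher calls, 68.4% as reported, was 75.7% with library totals, 66.4% with DESeq2's size factors, 60.7% with DESeq2, 66% with no filter, 57.8% with at least 50 counts, 69.1% without KIF5A, 59.8% with the replicate block, 56.1% with the GC and length offset and 54.6% with the GC offset alone. With a library left out it lay between 56% (without WT replicate 1) and 90.8% (without d27 replicate 1). Clock members called numbered 1 as reported and 2 with DESeq2, no filter, the replicate block and, among libraries left out (1 to 2), without WT replicate 2; the added gene was BHLHE40 each time. Of the other clock genes, 2 were called as reported, 1 with library totals, 5 with DESeq2, 6 with no filter, 4 with at least 50 counts, 4 with either offset, 10 with the replicate block and 1 (without WT replicate 2 or d27 replicate 1) to 7 (without WT replicate 1) with a library left out. Some of these were lower calls: over the 13 alternatives DDB1 was called lower in 7, CUL1 in 4 and TIMELESS in 1. CSNK2A1 was called higher in 6, SIRT1 in 4, TEF in 2, and CSNK1E, CSNK1A1, CSNK2B and FBXW11 in 1 each. Signs turned only in members that did not pass. Over the libraries left out, log2 fold changes ran between -0.47 (without d27 replicate 1) and 0.18 (without d27 replicate 2) for CLOCK, -0.069 (without WT replicate 1) and 0.48 (without WT replicate 2) for CRY1, -0.039 (without d27 replicate 1) and 0.27 (without d27 replicate 2) for PER2 and -0.47 (without d27 replicate 1) and 0.27 (without d27 replicate 2) for PER3. CRY1 also turned to -0.16 with the GC and length offset, and PER3 to 0.0017 with no filter. The cause of these shifts was not tested. Without a filter the median log2 fold change of all genes was 0.31, and with DESeq2 0.26; the members' medians were then 0.36 and 0.30. Under the replicate block, BHLHE40 had log2 0.93 (edgeR adjusted p = 0.0169). The replicate numbers share no stated source, and over genes the replicate differences in d27 and WT correlated at r = 0.0962, so the numbers were not taken as pairs.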
